A study of Nothobranchius furzeri with 6 samples.

Results

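The cyclin-dependent kinase inhibitors of the killifish retina were followed across cell types and ages in single-cell counts. Entries of the gene table were taken when their name, ignoring case, began with CDKN1 or CDKN2, which gave 9 of 24989 entries. They were CDKN1A, CDKN1B, CDKN1BA, CDKN1C(2OF2), CDKN2B, CDKN2C, CDKN2D, CDKN2AIP and CDKN2AIPNL. CDKN2AIP and CDKN2AIPNL share only the start of the name, since they are named for a protein that binds CDKN2A and for a relative of it, and they are described last. The rule used names and no measured value.

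The inhibitors halt the cell cycle by binding cyclin-dependent kinases, the enzymes that drive a cell from one phase to the next. The CIP/KIP family (in mammals p21 from CDKN1A, p27 from CDKN1B and p57 from CDKN1C) binds complexes of cyclins with several kinases. The INK4 family (in mammals p15 from CDKN2B, p18 from CDKN2C and p19 from CDKN2D) binds CDK4 and CDK6. p21 is induced by DNA damage and is a marker often used for cell senescence, p27 holds cells in quiescence, and p57 is known in mammals from cells leaving the cycle in the developing retina. Most neurons of an adult retina no longer divide, while Müller glia of fish can re-enter the cycle and give rise to neurons.

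Neural retinas, freed of the retinal pigment epithelium, came from wild-type females of Nothobranchius furzeri, a short-lived killifish, in its inbred GRZ-AD strain. No group was treated. Each age (6, 12 and 18 weeks) had 2 libraries, and a library pooled the retinas of 3 fish at 6 weeks or of 2 fish at the later ages. Cells were dissociated with papain and run on the droplet-based 10x Genomics platform (v3, 3′ ends of transcripts). A random tag per transcript, the unique molecular identifier (UMI), let amplified copies count as 1.

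The table held 37243 cells, 4804 to 7235 per library, with 17393089 to 24317894 UMIs per library. Cells bore 1 of 18 type names given by the authors, of which 16 had at least 10 cells in every library and were tested. RPE-annotated cells (51) and red blood cells (28) were too few. Of 40 marker entries for the named types, 35 were highest in the type they mark. VSX1 and PAX6(2OF2) were instead highest in the Vip neurons, and the smooth muscle genes TAGLN and ACTA2 in RPE-annotated cells. There were 171 cell barcodes found in more than 1 library, which covered 342 cells (0.918%).

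Levels are given as CPM, the UMIs of a gene for every 1000000 UMIs of the same library and cell type, always in the order 6-week replicates 1 and 2, 12-week replicates 1 and 2, 18-week replicates 1 and 2. Because a 3′ CPM depends on the gene as well as on its transcripts, levels were compared between cells and never between genes. Counts were sparse. CDKN1A had 6502 UMIs in 4463 cells (12.0% of all cells), and 71.9% of those cells held 1 UMI. CDKN1BA had 4781 UMIs in 3920 cells (10.5%), 83.5% of them with 1 UMI. The names and identifiers were those of the authors: CDKN1A is XLOC_016164 and CDKN1BA is XLOC_004824 (by its name a fish copy of CDKN1B).

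Averaged over the 6 libraries of all ages, CDKN1A was highest in bipolar cells and photoreceptors. Bipolar cells, which relay signals from photoreceptors to ganglion cells, had the highest mean among the 16 tested types, at 91.5 ± 37.8 CPM (SD, n = 6 libraries). L/M cones followed at 73.7 ± 26.4, S cones at 72.2 ± 22.9, rods at 64.5 ± 31.9, UV cones at 54.0 ± 21.3 and Müller glia at 51.7 ± 22.3 CPM. These means and SDs span the 3 ages, so differences between ages enter both. At 6 weeks alone the means of S cones (59.9 CPM), L/M cones (58.5) and bipolar cells (58.1) were close. Müller glia (43.0) were then above rods (34.8) and UV cones (31.3). Retinal ganglion cells (16.6 CPM), differentiating cells (14.4), the 3 amacrine types other than starburst cells (12.4 to 13.3) and oligodendrocytes (10.4) were low. Horizontal cells were lowest at 3.39 ± 1.03 CPM, although their cells were deep (median 4596 UMIs), and 1.58% of them held a CDKN1A UMI (0.405% after each cell was thinned to 1000 UMIs). In bipolar cells the share was 13.3%, or 7.44% after thinning, at a median of 1963 UMIs.

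Neighbours in that order overlapped between libraries. Each type was set against the next in the order by the difference in log2(CPM + 1) within each library, with a two-sided exact permutation test that flips the signs of the 6 differences (smallest possible p 0.0312). None of the 15 steps for CDKN1A had the same direction in 6 of 6 libraries. In cells thinned to 1000 UMIs bipolar cells stayed highest and oligodendrocytes were lowest, and 4 of 16 types kept their rank. Since the type names came from clustering of these same cells, levels across types are a description of the annotation.

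The immune cell mean of 49.4 CPM rested on 1 cell. In 12-week replicate 2 a single immune cell held 85 CDKN1A UMIs of its 10291, while no other cell of the data set held more than 8. CDKN1A in immune cells read 16.6, 6.12, 24.9, 217.8, 15.1 and 15.7 CPM. Without that cell, 12-week replicate 2 fell to 1 UMI and 2.60 CPM, so that immune cells were at or under 24.9 CPM in every library. The cell held no UMI of the other inhibitors.

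**Figure D1:**
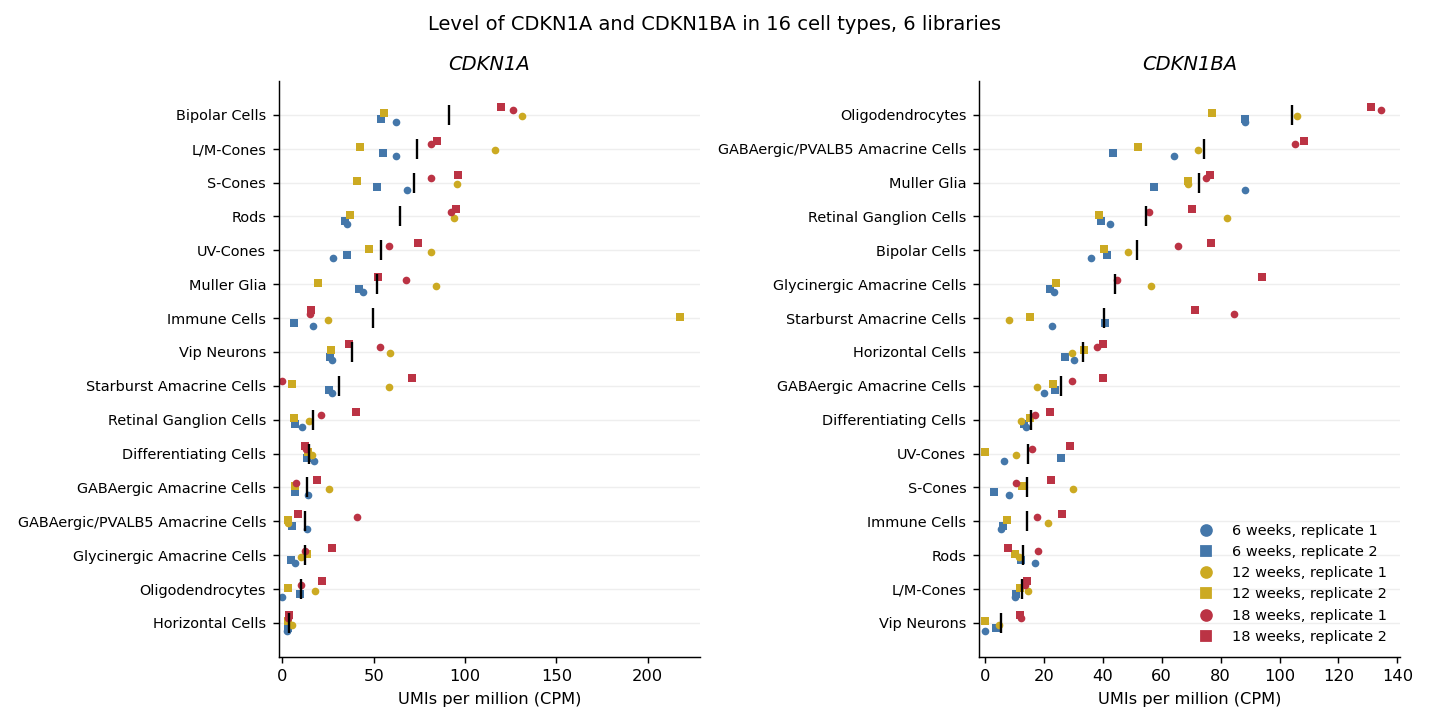
Level of CDKN1A (left) and CDKN1BA (right) in 16 retinal cell types, in CPM. Each point is 1 library (colour for age, circles for replicate 1 and squares for replicate 2) and the black tick is the mean of 6 libraries. CDKN1A is highest in bipolar cells (91.5 CPM) and lowest in horizontal cells (3.39 CPM), and CDKN1BA is highest in oligodendrocytes (104 CPM) and lowest in Vip neurons (5.51 CPM). The lone high immune point is the library with 1 cell of 85 UMIs.

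CDKN1BA had another distribution. Oligodendrocytes, the myelin-forming glia, read 88.4, 88.2, 105.9, 77.0, 134.3 and 131.2 CPM (mean 104 ± 24.0). The GABAergic/PVALB5 amacrine cells followed at 74.3 ± 27.1 CPM and Müller glia at 72.5 ± 10.2 CPM. Retinal ganglion cells were at 54.8 ± 18.2 and bipolar cells at 51.5 ± 16.1 CPM. The photoreceptors were low, with means of 12.6 CPM in L/M cones, 12.8 in rods, 14.4 in S cones and 14.6 in UV cones, and Vip neurons were lowest at 5.51 ± 5.54 CPM. Types at the top for CDKN1A (cones and rods) were thus near the bottom for CDKN1BA. In the order for CDKN1BA, oligodendrocytes were above PVALB5 amacrine cells in 6 of 6 libraries, by 0.53 ± 0.26 on the log2 scale (SD, exact permutation p = 0.0312). GABAergic amacrine cells were above differentiating cells by 0.66 ± 0.16, also in 6 of 6 (exact permutation p = 0.0312). After adjustment over the 15 steps both exact permutation p were 0.156. A step could pass the adjustment only if most of the steps had the same direction in all libraries, so that missing it carries no information.

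The other inhibitors each had another order of types. CDKN1B (XLOC_019065, 10189 UMIs in 17.8% of cells) was highest in oligodendrocytes at 507, 473, 587, 548, 664 and 738 CPM. Müller glia came next at 235, 280, 229, 251, 254 and 267 CPM, then PVALB5 amacrine cells at 126 ± 10.6 CPM. The libraries of these 3 types did not overlap. The step from oligodendrocytes to Müller glia was 1.20 ± 0.26 on the log2 scale and the step from Müller glia to PVALB5 amacrine cells 1.00 ± 0.19, each in 6 of 6 libraries (exact permutation p = 0.0312, adjusted 0.156). CDKN1B and CDKN1BA, both named for p27, thus had the same 3 leading types, with oligodendrocytes first for each. CDKN1B was lowest in immune cells at 21.2 CPM, and the 4 photoreceptor types ranged from 26.4 (S cones) to 44.2 CPM (rods). In cells thinned to 1000 UMIs S cones were lowest for CDKN1B.

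CDKN1C(2OF2) (XLOC_019553, 2225 UMIs in 3.77% of cells) was highest in Müller glia, the radial glia of the retina, at 115.3, 105.9, 106.1, 121.8, 90.8 and 83.5 CPM. Retinal ganglion cells were next at 23.2 ± 9.35 CPM, a step of 2.21 ± 0.61 on the log2 scale in 6 of 6 libraries (exact permutation p = 0.0312, adjusted 0.234). L/M cones, Vip neurons, oligodendrocytes and starburst cells were all under 3 CPM. The ending of the name reads as 1 of 2 copies, but no other entry of the gene table was named CDKN1C. Sequences were not compared, so whether reads that fit another copy affect its count was not examined.

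Of the INK4 genes, CDKN2B (XLOC_006520, 2089 UMIs) was highest in bipolar cells at 42.4, 44.9, 44.7, 45.2, 47.5 and 44.1 CPM. That narrow range held at all 3 ages. GABAergic amacrine cells followed at 18.0 ± 9.68 CPM, and cones had 1 UMI in each of the L/M, S and UV types. CDKN2C (XLOC_023461) was rare, with 110 UMIs in 62 cells, of which 81 UMIs were in differentiating cells, the type that holds dividing and newly formed cells. Its level there was 6.11, 13.9, 17.7, 15.4, 24.0 and 37.7 CPM, and it had no UMI in 8 of the 16 types. CDKN2D (XLOC_013489, 790 UMIs) was also highest in differentiating cells at 25.0 ± 8.67 CPM, followed by retinal ganglion cells at 16.9 ± 3.49 CPM. In cells thinned to 1000 UMIs retinal ganglion cells were highest for CDKN2D instead, and 2 of 16 types kept their rank.

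**Figure D2:**
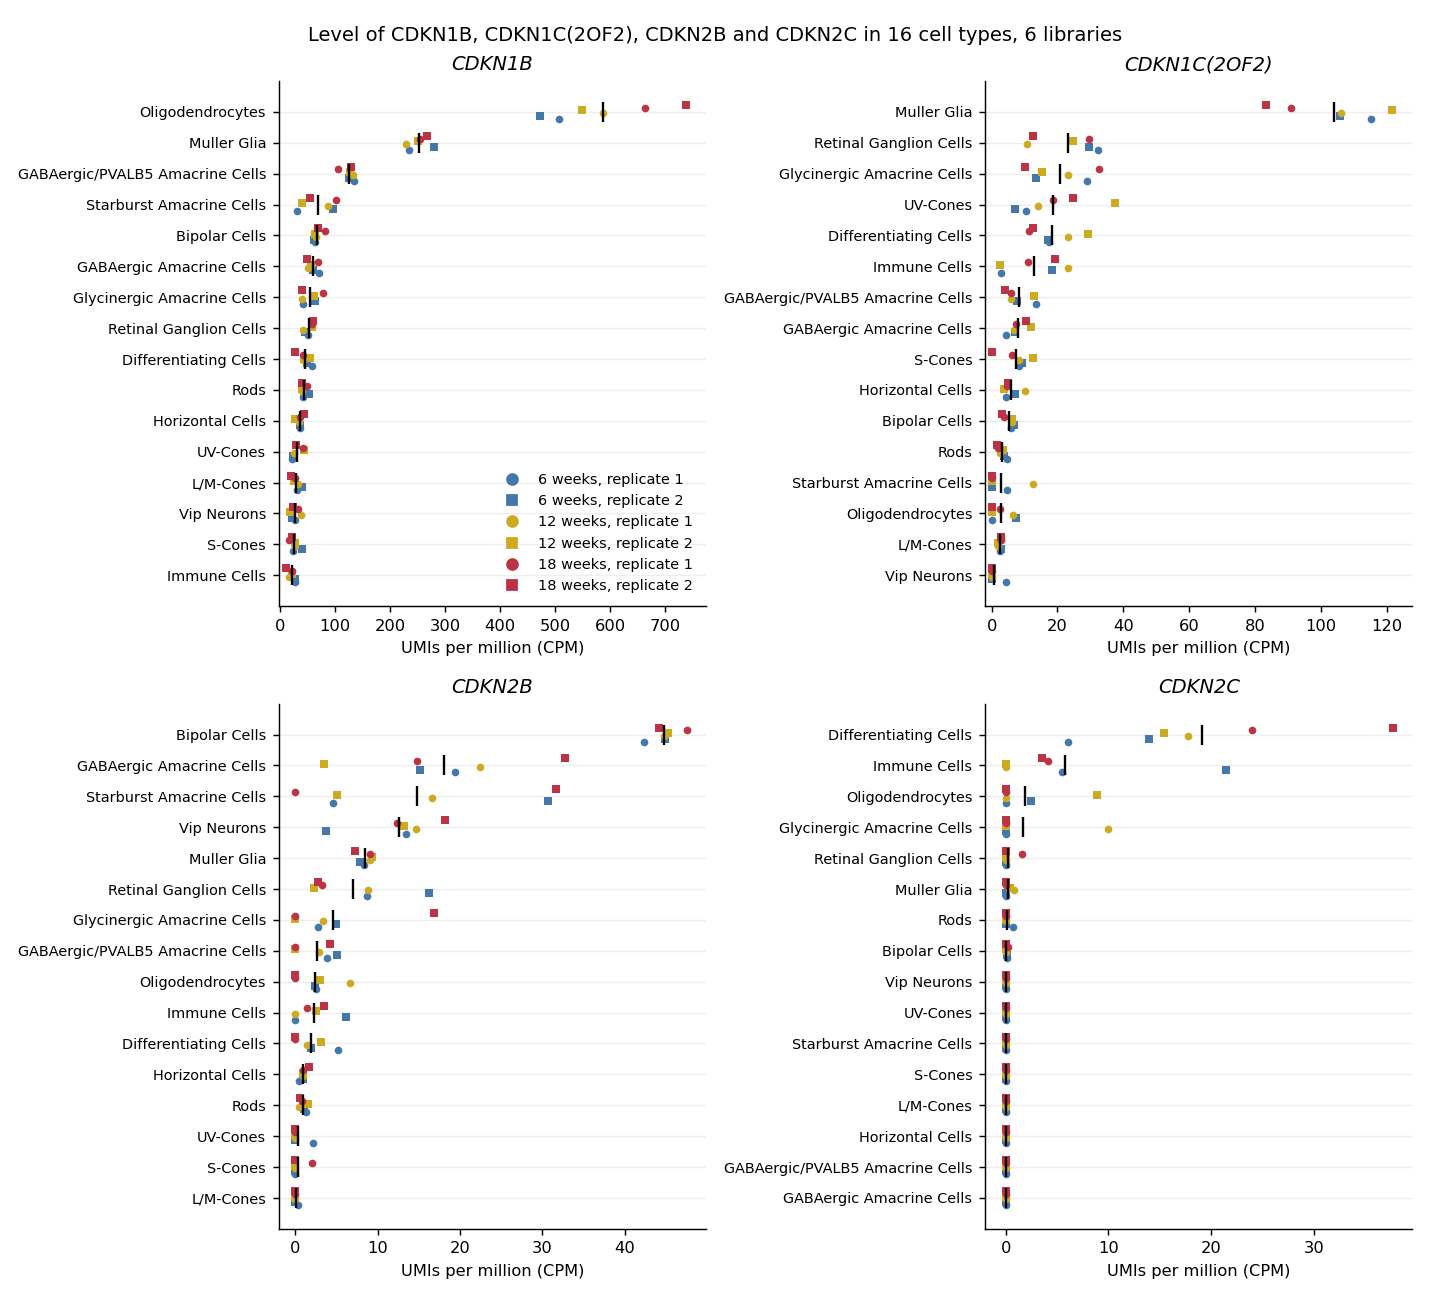
Level of CDKN1B, CDKN1C(2OF2), CDKN2B and CDKN2C in 16 cell types, in CPM. Each point is 1 library (colour for age, circles for replicate 1 and squares for replicate 2) and the black tick is the mean of 6 libraries. The highest means are 586 CPM (CDKN1B, oligodendrocytes), 104 CPM (CDKN1C(2OF2), Müller glia), 44.8 CPM (CDKN2B, bipolar cells) and 19.1 CPM (CDKN2C, differentiating cells).

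Differences between ages were tested on counts summed per library and cell type, using edgeR (quasi-likelihood), and p-values were adjusted over all genes of a fit. Libraries were the replicates, so p-values measure the spread between pools of fish. A sum does not tell fewer expressing cells from less RNA per cell. At 18 against 6 weeks, 86 pairs of a CDKN entry and a cell type had enough counts for a fit. Of these, 4 were called higher and 0 lower (24 had an unadjusted p under 0.05), against 1.08% of all gene and type pairs called higher and 1.28% called lower. The share of all pairs with an unadjusted p under 0.05 was not counted, so such counts, here and below, have nothing to be set against. The 4 called pairs were CDKN1A in bipolar cells and rods, and CDKN1BA and CDKN2AIP in bipolar cells. DESeq2 gave an adjusted p for 52 of the 86 pairs, so the rest could not be called. It called 1 higher, CDKN1BA in bipolar cells, and 0 lower, with 12 unadjusted p under 0.05 among the 86.

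CDKN1A rose in bipolar cells with age. Its level was 62.0 and 54.2 CPM at 6 weeks, 131.3 and 55.5 at 12 weeks, and 126.1 and 119.8 at 18 weeks. Both 18-week libraries stood above both 6-week libraries, as in 34.4% of genes tested in bipolar cells, and the 12-week libraries were split between the levels of the other ages. The log2 fold change at 18 against 6 weeks was 1.01 ± 0.28 (SE, edgeR adjusted p = 0.0436), where 3.17% of genes were called higher. With DESeq2 the same change of 1.01 had an adjusted p of 0.376, and with cells thinned to 1000 UMIs edgeR gave 0.85 (adjusted p = 0.0865). Leaving out 1 of the 6- or 18-week libraries put the edgeR adjusted p between 0.101 and 0.230, and leaving out 12-week replicate 1 or 2 at 0.000102 or 0.000139.

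CDKN1A in rods, the dim-light photoreceptors, was 35.2 and 34.4 CPM at 6 weeks, 93.7 and 36.8 at 12 weeks, and 92.3 and 94.8 at 18 weeks. The 12-week libraries were again split, 1 at the 18-week level and 1 close to the 6-week level. The rise at 18 weeks was 1.45 ± 0.33 on the log2 scale (edgeR adjusted p = 0.0265), where 0.913% of genes were called higher. DESeq2 gave an adjusted p of 0.325 and thinned cells 0.0754 with edgeR. Without 1 of the 6- or 18-week libraries the edgeR adjusted p was 0.0692 to 0.100.

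Outside these types no fit called CDKN1A. In retinal ganglion cells it read 10.6, 7.06, 14.7, 6.19, 21.3 and 40.1 CPM (1.71 ± 0.45, edgeR adjusted p = 0.198). In UV cones it read 27.5, 35.1, 81.2, 47.5, 58.3 and 74.1 CPM (0.94 ± 0.38, edgeR adjusted p = 0.288). Values at 18 weeks were above those at 6 weeks with no overlap in 10 of the 16 types. Among the 12 types with a fit it was 8, where 25.6% of fitted gene and type pairs were. Differentiating cells lay the other way, as 19.6% of pairs did with no overlap, at 17.5 and 13.3 against 12.7 and 12.6 CPM, with a fitted change of -0.23 ± 0.47 that was not called. Summed over all cells, CDKN1A was 38.6, 33.0, 79.5, 35.0, 69.5 and 71.9 CPM. The change was 0.96 ± 0.35 (edgeR adjusted p = 0.149), where 1.91% of genes were called higher. It passed when only the 6- and 18-week libraries were fitted (0.95, edgeR adjusted p = 0.0140). The study's own bulk RNA sequencing of neural retinas reported no significant change of cdkn1a or cdkn1b at 18 against 6 weeks. The authors set this apart from their earlier quantitative PCR. The bulk data were other samples, and a call there also required a minimum fold change.

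For CDKN1A at 12 weeks, replicate 1 was above replicate 2 in 13 of the 16 types, and it was above both 6-week libraries in 14 types against 4 for replicate 2. At 6 weeks replicate 1 was also the higher in 13 of the 16 types, and at 18 weeks in 5, so that the count does not set 12 weeks apart. The ratio of replicate 1 to replicate 2 was 2.36 in bipolar cells, 2.55 in rods, 2.74 in L/M cones and 4.29 in Müller glia. Few genes differed as much, in either direction, between these libraries: 7 of 7478 genes averaging 20 CPM or more in bipolar cells (0.0936%), and 4 of 6425 in Müller glia (0.0623%). CDKN1BA, by comparison, had a ratio of 1.20 in bipolar cells. Between 6 and 12 weeks edgeR called none of the 86 pairs (7 had an unadjusted p under 0.05, smallest adjusted p 0.543), where 0.122% of all pairs were called. The 12 CDKN1A fits lay above 0 in 12 of 12 types for that contrast. These types share the same libraries, and the share of all genes with such a count was not taken. Immune cells of 12-week replicate 2 read 217.8 CPM with the 85-UMI cell and 2.60 CPM without it. DESeq2 called 0 of the 84 pairs to which it gave an adjusted p, with 1 unadjusted p under 0.05.

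**Figure D3:**
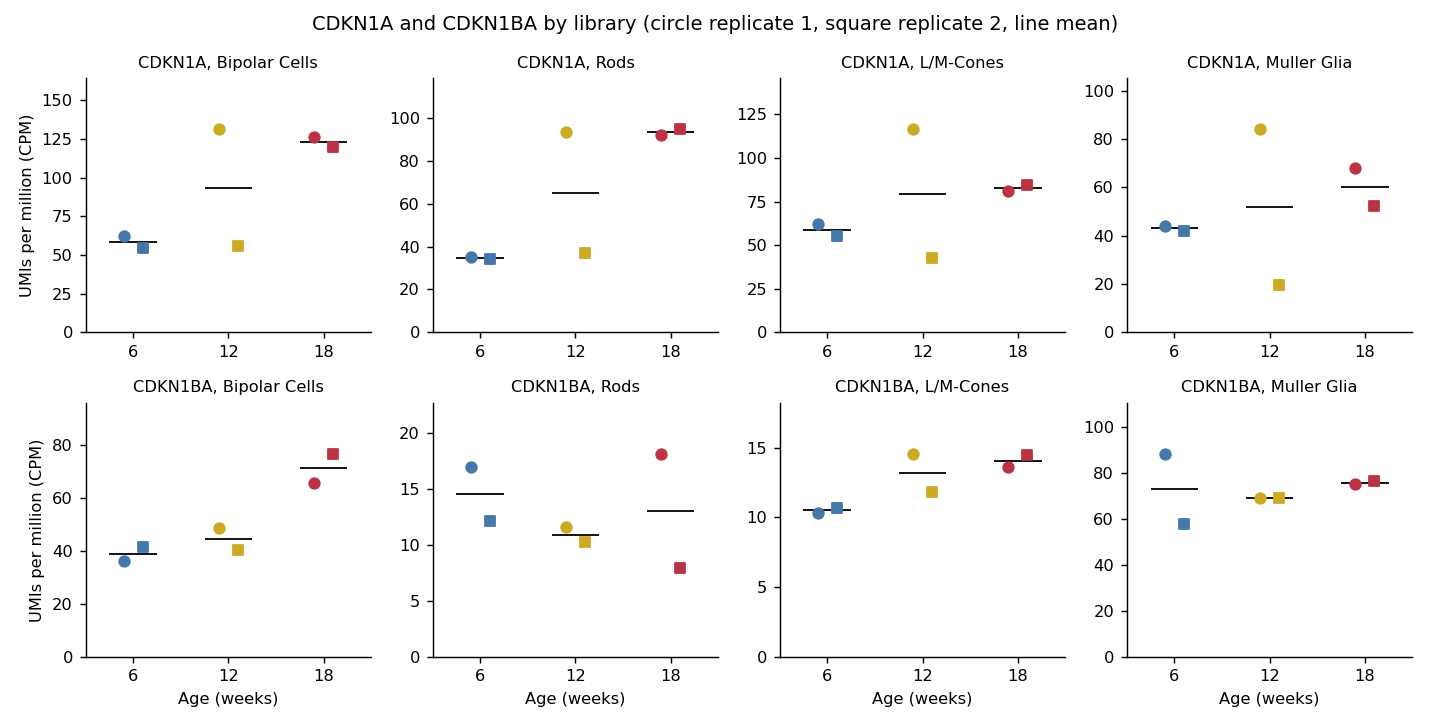
CDKN1A and CDKN1BA in bipolar cells, rods, L/M cones and Müller glia by age, in CPM. Each point is 1 library (circles for replicate 1, squares for replicate 2) and the horizontal line is the mean of the 2 libraries of an age. For CDKN1A in bipolar cells the 12-week replicates lie at 131.3 and 55.5 CPM, apart from each other, while CDKN1BA there climbs from 36.1 and 41.4 to 65.7 and 76.6 CPM at 18 weeks.

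CDKN1BA rose in bipolar cells as well. It was 36.1 and 41.4 CPM at 6 weeks, 48.7 and 40.5 at 12 weeks, and 65.7 and 76.6 at 18 weeks. Both 18-week libraries were above the other 4, and the 6- and 12-week libraries overlapped. The change was 0.81 ± 0.13 at 18 against 6 weeks (edgeR adjusted p = 0.00399) and 0.61 at 18 against 12 weeks (edgeR adjusted p = 0.0432), where 0.462% of genes tested in bipolar cells were called higher. The first call was lost without 6-week replicate 1 (adjusted p = 0.0593) or 18-week replicate 2 (0.0545). The second was lost with DESeq2 (0.0976), thinned cells (0.0718), only the 2 ages (0.0695), and without 6-week replicate 1 (0.0635) or 2 (0.0636), 12-week replicate 2 (0.200) or 18-week replicate 2 (0.341).

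CDKN1BA had no overlap between 6 and 18 weeks in 13 of the 16 types, higher at 18 weeks in each, against the 25.6% of fitted pairs given above. S cones and Vip neurons were among the 13 but had too few counts for a fit, so that share does not cover them. The types also share the same libraries and are not independent. The types with overlap were Müller glia (88.3 and 57.6 against 75.0 and 76.2 CPM), rods (16.9 and 12.2 against 18.1 and 7.90) and UV cones. In PVALB5 amacrine cells the level was 64.2 and 43.5 CPM at 6 weeks and 105.4 and 108.4 at 18 weeks (0.91 ± 0.34, edgeR adjusted p = 0.505). In glycinergic amacrine cells it was 23.5 and 22.3 against 44.9 and 94.1 CPM (1.45 ± 0.46, edgeR adjusted p = 0.307). Among the 13 types without overlap, bipolar cells alone passed the test after adjustment. Over all cells CDKN1BA read 33.1, 31.7, 39.5, 33.8, 45.0 and 54.9 CPM, a change of 0.60 ± 0.14 (edgeR adjusted p = 0.0578).

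**Figure D4:**
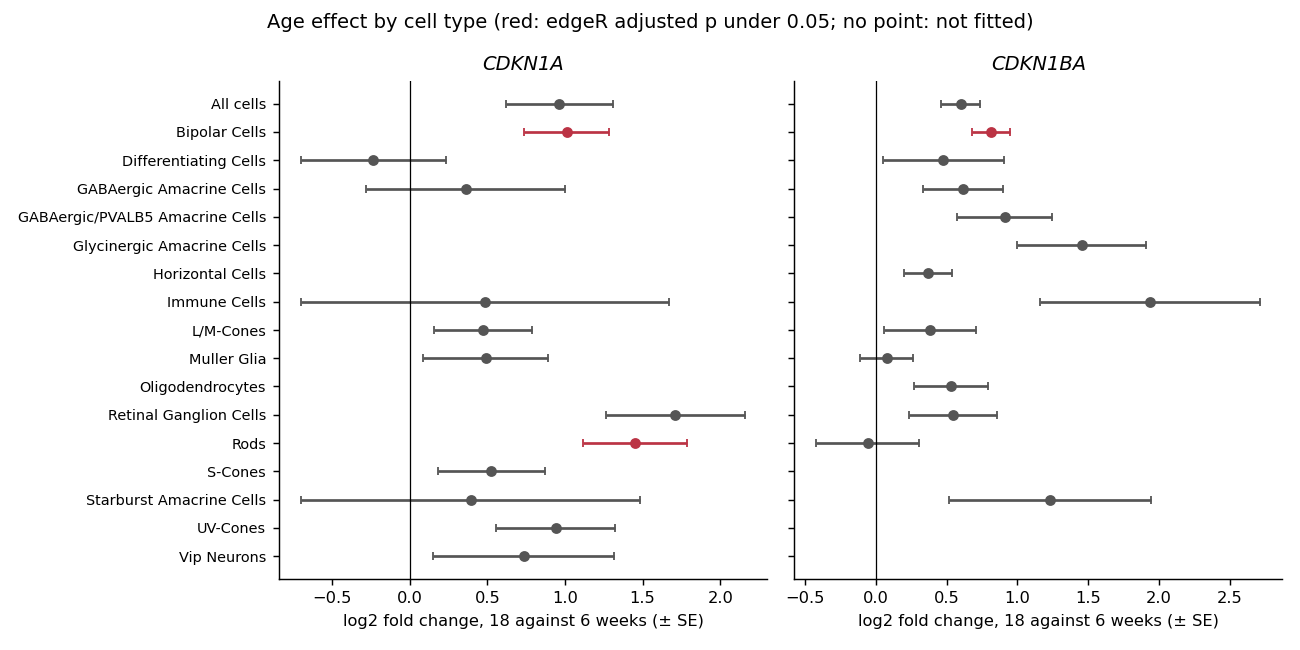
Log2 fold change of CDKN1A and CDKN1BA at 18 against 6 weeks in each cell type from edgeR, with the SE as bars. Red points have an adjusted p under 0.05, and types with no point had too few counts for a fit. CDKN1A is red in rods (1.45) and bipolar cells (1.01), and CDKN1BA in bipolar cells (0.81).

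A call in 1 type and none in another does not show that the types differ, so the difference was tested with limma, on the level in a type minus the mean of the other types within each library. None of 86 such differences passed (smallest adjusted p 0.167, 10 with an unadjusted p under 0.05), where 0.104% of all gene and type pairs did. For CDKN1A the rods exceeded the other types by 0.92 ± 0.28 (limma adjusted p = 0.283) and bipolar cells by 0.43 ± 0.21 (0.480). Rods did not stand apart. Retinal ganglion cells had 0.90 ± 0.27 (limma adjusted p = 0.590) and differentiating cells -0.95 ± 0.32 (0.645). For CDKN1BA the values were 0.19 ± 0.14 in bipolar cells (limma adjusted p = 0.640) and -0.84 ± 0.42 in rods (0.490).

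Counted as shares of cells with at least 1 UMI, neither gene passed after adjustment, but the smallest p of the test is too large for 122 tests to pass unless many of them reach it, so that this carries no information. After thinning each cell to 1000 UMIs, CDKN1A was found in 5.90, 5.24, 10.5, 4.95, 10.1 and 9.43% of bipolar cells. The difference of 4.20 percentage points between 18 and 6 weeks had p = 0.2 in an exact two-sided permutation test over the 90 assignments of libraries to ages, whose smallest p is 0.0222. CDKN1BA was found in 3.49, 4.50, 4.60, 4.13, 6.64 and 6.83% of bipolar cells, a difference of 2.74 points (exact permutation p = 0.0444, adjusted 0.678 over 122 tests). Unthinned, the CDKN1BA share went from 7.46% to 14.0% (exact permutation p = 0.0222, adjusted 0.448).

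Bipolar cells fell into 13 of the authors' 29 clusters, and the 2 genes marked different ones. CDKN1A was highest in cluster 19 at 376 CPM (mean of 6 libraries), followed by cluster 12 at 172, cluster 16 at 134, cluster 9 at 129 and cluster 7 at 127. It was lowest in cluster 14 at 8.70 CPM. CDKN1BA was highest in that cluster 14 at 126 CPM and lowest in cluster 12 at 9.72 CPM. Across the 13 clusters the log2 levels of the 2 genes had Pearson's r = -0.62 and Spearman's rho = -0.63, a description only, since the clusters share libraries and were made from these counts. CDKN2B had r = -0.76 with CDKN1BA, and was highest in cluster 13 (131 CPM) and lowest, like CDKN1A, in cluster 14 (5.45 CPM).

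Within single bipolar clusters, CDKN1A rose in cluster 19, where it read 221, 209, 527, 240, 531 and 524 CPM. The 12-week replicates again lay 1 with the 18-week libraries and 1 near the 6-week libraries. Its change there was 1.21 ± 0.23 at 18 against 6 weeks (edgeR adjusted p = 0.00266, and at most 0.0252 with any 1 library left out). It also rose in cluster 16 at 97.2, 51.8, 223, 71.1, 172 and 189 CPM (1.22 ± 0.33, edgeR adjusted p = 0.0324, up to 0.297 with 1 library left out). These were 2 of 10 clusters with a fit, where 0.802% of gene and cluster pairs were called higher. Cluster 7 did not follow, at 134.6 and 122.0 CPM at 6 weeks against 113.8 and 119.4 at 18 weeks. In all 13 clusters, 12-week replicate 1 was above replicate 2.

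CDKN1BA rose in cluster 14, its highest cluster, at 78.8, 88.2, 109, 99.4, 149 and 234 CPM (1.15 ± 0.25, edgeR adjusted p = 0.00617, up to 0.383 with 1 library left out). It rose in cluster 8 at 60.2, 59.7, 76.0, 52.7, 92.8 and 130.1 CPM (0.83 ± 0.21, edgeR adjusted p = 0.0386, up to 0.421 with 1 left out). The mean at 18 weeks was above that at 6 weeks in 13 of 13 clusters, and libraries did not overlap in 10, where 22.5% of pairs did not. With 1 set of cluster weights used for all libraries, the ratio of 18 to 6 weeks in bipolar cells changed for both genes. It went from 2.12 to 1.94 for CDKN1A and from 1.84 to 1.97 for CDKN1BA. The unadjusted exact permutation p of the difference was 0.178 for CDKN1A with either weighting. For CDKN1BA the exact permutation p was 0.0444 as measured and 0.0222 with the same weights.

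**Figure D5:**
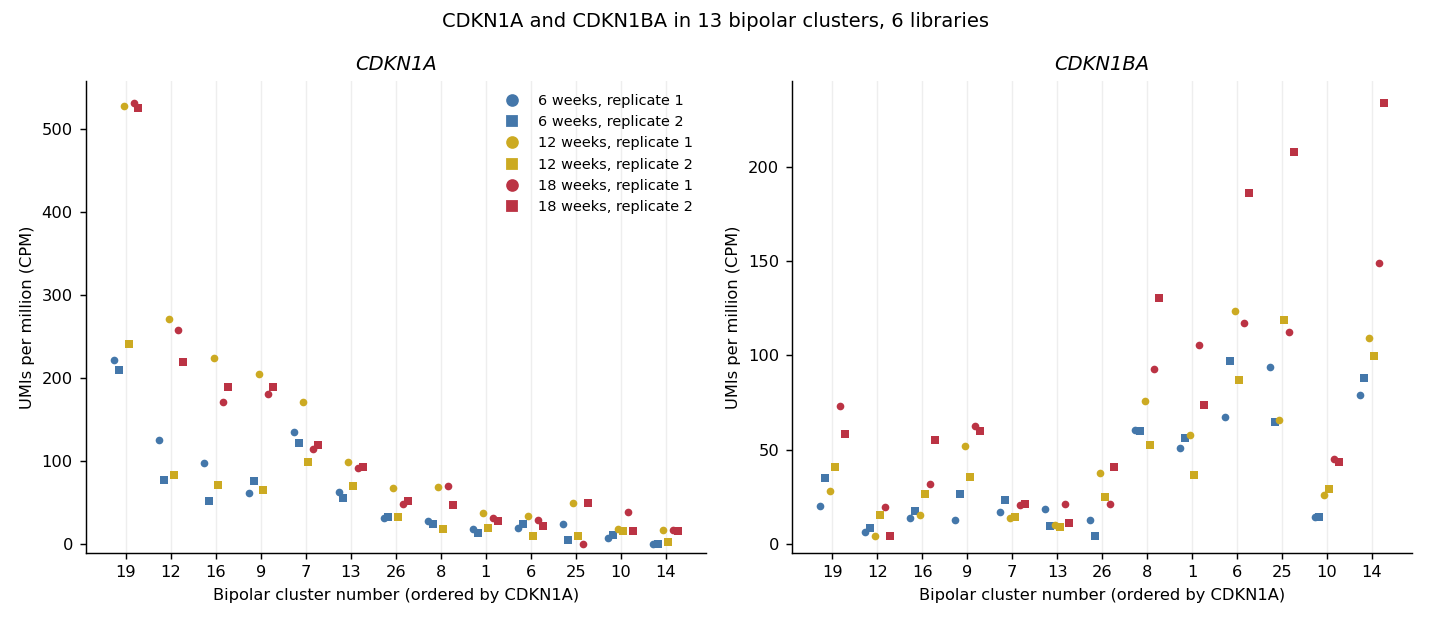
CDKN1A and CDKN1BA in the 13 bipolar clusters, ordered by the mean level of CDKN1A, in CPM. Each point is 1 library (colour for age, circles for replicate 1 and squares for replicate 2). CDKN1A is highest in cluster 19 (376 CPM) and CDKN1BA in cluster 14 (126 CPM), the cluster where CDKN1A is lowest (8.70 CPM).

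Markers of other cells were read in the same sums. At 18 against 6 weeks 6.94% of all genes were called in either direction in bipolar cells (3.17% higher) and 2.49% in rods. Of the 3 immune entries 2 were tested in bipolar cells, and 1 was called higher at 18 weeks. The list summed to 11.9 and 16.6 CPM at 6 weeks, 26.0 and 16.4 at 12 weeks and 62.5 and 27.2 at 18 weeks, with no entry at 0. Immune cells themselves held CDKN1A at 6.12 to 24.9 CPM outside the library with the 85-UMI cell, under the level of bipolar cells in each. The 3 rod markers were not called in bipolar cells and summed to 3114 to 5175 CPM. The red blood cell marker was at 112 CPM in rods of 18-week replicate 1 and at or under 0.676 CPM in rods of the other libraries, while CDKN1A in rods was 92.3 CPM in that library and 94.8 CPM in the other 18-week library. Of the bipolar markers, OTX2 was called lower in bipolar cells at 78.9, 95.9, 64.7, 68.9, 52.0 and 63.7 CPM (-0.66 ± 0.13, edgeR adjusted p = 0.0101), and VSX1 at 14.7, 18.6, 13.1, 12.8, 10.1 and 7.17 CPM (-1.04 ± 0.22, edgeR adjusted p = 0.0144). Also called lower there were 2 of 3 tested ganglion cell entries, whose list summed to 62.1 to 99.8 CPM with no order by age, and 1 of 3 tested entries each for amacrine cells (42.0 to 49.6 CPM at 6 weeks, 29.1 to 30.4 at 18 weeks, 1 entry at 0), oligodendrocytes (8.42 to 9.59 against 3.03 to 5.35) and differentiating cells (213 to 217 against 163 to 229.7). In rods 1 of 2 tested amacrine entries was called lower, and that list summed to 50.8 to 92.0 CPM at 6 weeks and 28.8 to 29.3 at 18 weeks. The part of these markers in the age changes was not tested.

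The remaining inhibitors were not called in any type in any of the 3 comparisons of ages. At 18 against 12 weeks the CDKN1BA call in bipolar cells was the 1 call among the 86 pairs, where 0.493% of all gene and type pairs were called in either direction. CDKN1C(2OF2) in bipolar cells was 5.86, 6.83, 6.20, 6.09, 3.85 and 3.03 CPM, with both 18-week libraries below the other 4 (-0.97 ± 0.29, edgeR adjusted p = 0.0614). In Müller glia, where it was highest, the change was -0.34 ± 0.16 (edgeR adjusted p = 0.260). CDKN1B had fitted changes on both sides of 0, from -0.64 in immune cells to 0.61 in UV cones (smallest edgeR adjusted p 0.221 over 14 types). In oligodendrocytes its change was 0.45 ± 0.19 (edgeR adjusted p = 0.327), with both 18-week libraries above the other 4. CDKN2C in differentiating cells had 1.47 ± 0.46 (edgeR adjusted p = 0.241), and CDKN2D had -0.53 ± 0.43 there (edgeR adjusted p = 0.770). For CDKN2B in bipolar cells the edgeR adjusted p was 0.995.

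Of the entries that match by name alone, 1 was called and the fitted changes of the other lay mostly below 0. CDKN2AIP (XLOC_012934) rose in bipolar cells from 40.0 and 40.5 CPM at 6 weeks to 56.3 and 56.7 at 18 weeks, with 44.7 and 50.3 between (0.42 ± 0.11, edgeR adjusted p = 0.0364, 0.212 with DESeq2). Its fitted change was above 0 in 14 of 15 types, and the 18-week libraries were above the 6-week libraries with no overlap in 8 of 16, against the 25.6% of pairs given above. Its call was lost when any 1 of the 6- or 18-week libraries was left out (edgeR adjusted p 0.101 to 0.193). CDKN2AIPNL (XLOC_017873) read 121.7 and 139.3 CPM in bipolar cells at 6 weeks and 112.2 and 103.7 at 18 weeks (-0.34 ± 0.12, edgeR adjusted p = 0.0936). Its fitted change was below 0 in 14 of 16 types. For both entries the types share the same libraries, and the share of all genes with such counts was not taken. In Müller glia it was 50.4 and 64.0 against 38.7 and 32.8 CPM (-0.68 ± 0.20, edgeR adjusted p = 0.0590).

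The genes around the inhibitors were taken from lists of cell cycle, growth arrest, regulator and senescence genes. Of 15 tested entries for cyclins and kinases of G1 and S phase in bipolar cells, 1 was called higher and 1 lower, where 6.94% of all genes were called in either direction. CCND2A (XLOC_019948), a D-type cyclin, was 2.27, 2.47, 5.85, 4.35, 7.28 and 7.80 CPM (1.60 ± 0.30, edgeR adjusted p = 0.00876). A second CCND2A entry (XLOC_005634) was not called, at 3.33, 3.92, 2.93, 6.09, 3.64 and 4.94 CPM (0.19 ± 0.36, edgeR adjusted p = 0.795). CCND1, another D-type cyclin, was 6.26, 9.30, 7.06, 5.66, 2.57 and 1.91 CPM (-1.88 ± 0.34, edgeR adjusted p = 0.00732). CDK2, CDK4 and CDK6, the kinases that the inhibitors bind, were not called in bipolar cells or in the sum of all cells. In all cells MKI67, a marker of dividing cells, changed by -1.68 ± 0.32 (edgeR adjusted p = 0.0424) and CCND1 by -1.04 ± 0.21 (edgeR adjusted p = 0.0450). The list of mitosis and replication genes had 2 of 32 entries called lower and 0 higher there, with a median change of -0.44 against 0.01 over all genes, and 3.63% of genes were called in either direction. The same list had a median of 0.01 in bipolar cells (1 of 18 called higher) and 0.27 in rods (0 of 9 called). Differentiating cells, where MKI67 and CCND1 were highest, were 222 and 312 of 6987 and 7235 cells at 6 weeks. At 18 weeks they were 138 and 53 of 5319 and 4804 cells. The part of this cell mix in the all-cell changes was not tested. Of the 16 entries of the RB and E2F family none was called in all cells, of 13 none in bipolar cells and of 12 none in rods.

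GADD45AB, a growth arrest and DNA damage gene, was 16.1, 14.2, 23.8, 18.0, 28.0 and 26.8 CPM in bipolar cells (0.78 ± 0.17, edgeR adjusted p = 0.0171). CCNG1, which encodes cyclin G1, was 435, 483, 558, 503, 726 and 655 CPM (0.52 ± 0.12, edgeR adjusted p = 0.0243). In rods GADD45AB was called as well, at 123, 131, 189, 140, 220 and 264 CPM (0.95 ± 0.22, edgeR adjusted p = 0.0322), where 2.49% of genes were called in either direction. MDM2, a ubiquitin ligase, was not called in bipolar cells (0.22 ± 0.15), rods (0.19 ± 0.31) or all cells (0.19 ± 0.12).

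Among 55 tested entries listed as upstream regulators, 4 were called higher and 3 lower in bipolar cells, against 6.94% of all genes. Whether any of them acts on the inhibitors in these cells was not tested. The study had already reported more FKBP5 at 18 weeks in Müller glia, immune cells and oligodendrocytes, so its place in the list is no independent support. FKBP5 (XLOC_015884), a chaperone partner induced by glucocorticoids, was 352, 306, 560, 485, 692 and 782 CPM (1.09 ± 0.12, edgeR adjusted p = 0.000367). SMAD7, an inhibitor of TGF-beta signalling, rose by 0.70 ± 0.13 (edgeR adjusted p = 0.00942). The clock gene PER1 fell by 0.43 (edgeR adjusted p = 0.0330) and the transcription factor PROX1 by 0.51 (edgeR adjusted p = 0.0227). In rods FKBP5 was 263, 202, 585, 363, 598 and 599 CPM (1.40 ± 0.25, edgeR adjusted p = 0.00554), and of 39 regulators 2 were called higher and 0 lower, against 2.49% of all genes. Against the same shares, the senescence-linked list had 0 entries called higher and 1 lower of 18 in bipolar cells, HMGA1, a chromatin protein (-0.61 ± 0.10, edgeR adjusted p = 0.00462). In rods it had 1 higher and 1 lower of 11, the second again HMGA1 (-1.42 ± 0.22, edgeR adjusted p = 0.00237). In all cells the senescence-linked list had 2 higher and 2 lower of 25, where 3.63% of all genes were called in either direction. The regulators had 2 higher and 2 lower of 60 there. Those named in all cells were TIMP2A (0.48 ± 0.10, edgeR adjusted p = 0.0493), HMGA1 (-0.83 ± 0.13, 0.0288), STAT1A (0.95 ± 0.15, 0.0293) and FKBP5 (1.14 ± 0.20, 0.0334).

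Over the 96 sums of 6 libraries and 16 types, the entries most like CDKN1A in pattern were GRAMD2(1OF2) (Pearson's r = 0.78), PACSIN3 (0.75), PTPN21 (0.74), PVRL1A (0.73) and SERINC4 (0.72). Those most like CDKN1BA were B3GAT1 (0.79), SPRED1 (0.77), PIP5K1BB (0.75), DENND5B (0.74) and OLA.79 (0.73). CDKN1B was most like CD226 and FAM102AA (0.84 each), and CDKN1C(2OF2) most like GLDC (0.80). CDKN2C was most like KNSTRN (0.95) and NUF2 (0.94), both genes of the mitotic spindle and kinetochore. These values compare 7974 or 7975 entries and describe sums that share libraries and types.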

How the data were processed

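Raw UMI counts per gene and cell, as deposited by the authors, were obtained by them with Cell Ranger 7.0.1 on a custom killifish transcriptome, with 1001 to 19991 UMIs per cell. Type names and clusters were the authors' own. Whether doublets were removed is not given in the sources used here. Ages and replicates came from the labels. Cells were summed per library and per type, and the summed counts of a cell matched the authors' cell table in all 37243 cells.

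Sums were scaled with TMM, filtered with filterByExpr by age and tested with edgeR 4.0.16 (quasi-likelihood, age as a factor of 3 levels, all 6 libraries, Benjamini-Hochberg over all genes of a fit, 5%). Cells were not treated as replicates, unlike in the study's regression over cells. Differences between types used limma 3.58.1 (log2 CPM, prior count 2). DESeq2 1.42.0, RLE size factors, no filter, the 2 ages alone, thinned cells, a replicate block and each library left out were alternatives. The same cluster or type weights in all libraries, single clusters and leaving out 1 cell were added after seeing the data. Type steps and shares of cells used two-sided exact permutation tests. R 4.3.3 and Python 3.11.15 were used. The edgeR script was tested on simulated data. Intervals and UMI shares cover counting error only.

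The entries and gene lists were chosen with earlier results of these data known. Every CDKN1 and CDKN2 entry was reported, with CDKN1A and CDKN1BA in full and others in full where called. From each list the 2 called entries with the smallest adjusted p in each direction and a mean of at least 20 CPM were named, plus MDM2, CDK2, CDK4, CDK6, CCND1, CCND2 and MKI67. Some fixed genes and 1 list are not reported here. The 5 entries most like a member in pattern had a mean of at least 50 CPM in some type. Entries were matched to RefSeq symbols by their second name, and those of CDKN1B, CDKN2B and CDKN2D had no match. CDK2, CCND2A and FKBP5 each matched more than 1 entry. Reads that fit more than 1 copy may affect their counts, which was not examined. Coordinates and sequences were not used here. Replicate numbers did not pair libraries in the same way at all ages. Over 18964 genes the deviations of equal numbers had r = -0.19 (6 and 12 weeks), -0.22 (6 and 18 weeks) and 0.38 (12 and 18 weeks). Whether some libraries shared a factor other than age was not tested.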

Additional observations from a re-analysis of the deposited data

Results flagged for a closer look

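For 4 of the 9 entries both 18-week libraries lay below both 6-week libraries in some fitted types and above them in others, a difference in direction that was not tested in itself beyond the limma comparison of each type with the others, which passed for none. CDKN1A was lower in 1 type (differentiating cells) and higher in 8 of 12. CDKN1B was lower in 3 types (differentiating cells, immune cells, L/M cones) and higher in 4 of 14 (bipolar cells, oligodendrocytes, retinal ganglion cells, UV cones). CDKN1C(2OF2) was lower in 4 types (bipolar cells, differentiating cells, Müller glia, retinal ganglion cells) and higher in 1 of 7 (GABAergic amacrine cells). CDKN2AIPNL was lower in 7 types and higher in 1 of 16 (S cones). Over all gene and type pairs, 25.6% were higher and 19.6% lower with no overlap.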

How the results depend on the processing

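Of 560 alternative values for 62 results, 487 were labelled the same, 17 changed sign, 27 lost and 9 gained a call, and 20 moved otherwise. For a test, the same meant the same direction and side of the threshold. For a number of genes called it meant a number of similar size. For an order of types it meant an unchanged number of steps that passed, and none passed in any setting. Most results were not called to begin with, so the tally does not measure how firm the calls are. Where no cause is named below, the cause was not tested. With DESeq2 the changes at 18 against 6 weeks in bipolar cells were 1.01 for CDKN1A (adjusted p = 0.376) and 0.42 for CDKN2AIP (0.212), that of CDKN1A in rods was 1.45 (0.325), that of CDKN1BA in all cells 0.59 (0.0252), and that of CDKN1BA in bipolar cells at 18 against 12 weeks 0.60 (0.0976). With cells thinned to 1000 UMIs, CDKN1A had 0.85 in bipolar cells (edgeR adjusted p = 0.0865) and 1.39 in rods (0.0754), and CDKN1BA 0.59 in bipolar cells at 18 against 12 weeks (0.0718). With only the 2 ages compared, CDKN1A had 0.95 (0.0140) and CDKN1BA 0.59 (0.0449) in all cells, and CDKN1BA 0.61 in bipolar cells at 18 against 12 weeks (0.0695).

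With each library left out in turn, the changes at 18 against 6 weeks ranged from 0.87 to 1.05 for CDKN1A and from 0.49 to 0.69 for CDKN1BA in all cells. In all cells both were called without 12-week replicate 1 (edgeR adjusted p 0.0110 for CDKN1A and 0.0456 for CDKN1BA) or replicate 2 (0.0113 and 0.0422). In bipolar cells the range was 0.94 to 1.09 for CDKN1A, 0.70 to 0.93 for CDKN1BA, 0.39 to 0.45 for CDKN2AIP (adjusted p 0.101 to 0.193 without any 6- or 18-week library) and, at 18 against 12 weeks, 0.45 to 0.78 for CDKN1BA. In rods it was 1.40 to 1.53 for CDKN1A. The sign changed within the range from -0.071 (without 18-week replicate 1) to 0.21 for CDKN1B and -0.36 to 1.10 for CDKN2C in all cells, from -0.53 to 0.90 for CDKN1A in GABAergic amacrine cells, from -5.42 to 1.34 for CDKN1A in starburst cells, from -0.19 to 0.36 for CDKN1BA in Müller glia, and from -0.82 to 0.38 for CDKN1BA in rods. CDKN2B in all cells, 0.01 as reported, ran from -0.16 to 0.15, and was -0.00280 with DESeq2, -0.00276 with RLE size factors and -0.0204 without cluster 10. The CDKN1BA share of rods fell by 0.378 percentage points in unthinned cells. The share in thinned rods rose by 0.989.

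Counts of genes called varied: 688 in all cells became 1259 with DESeq2, 413 with thinned cells and 3 to 804 with 1 library left out. In bipolar cells 1067 became 517 with DESeq2, 1861 with no filter, 601 with thinned cells and 213 to 1237 with 1 left out. In rods 270 became 172, 542, 72 and 75 to 544, and 471 with the 2 ages alone. The replicate block used numbers that did not pair the libraries in the same way at all ages. It gave 1.03 for CDKN1A (edgeR adjusted p = 0.00102) and 0.81 for CDKN1BA (0.000558) in bipolar cells. CDKN1A had 1.44 in rods (edgeR adjusted p = 0.00922) and 0.97 in all cells (0.103). The block called 621, 1352 and 243 genes in all cells, bipolar cells and rods, and it changed none of the calls tried. With 2 pools of fish per age and mostly 1 UMI per positive cell, the size of change detectable in the rarer types was not estimated.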

Other observations

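A further entry, CABZ01081148.1 (XLOC_005552), carries a second name that RefSeq gives as cdkn1d, a fish member of the CIP/KIP family, and was outside the name rule. It was highest in oligodendrocytes, at 37.9, 56.4, 57.4, 59.3, 131.7 and 196.8 CPM, and the 18-week libraries lay above the other 4. In bipolar cells it read 51.8, 64.3, 64.2, 63.9, 104.9 and 124.9 CPM, again with both 18-week libraries on top. The entry was chosen after its values were seen, and no test is given. Both 18-week libraries stood above both 6-week libraries in 34.4% of genes tested in bipolar cells. Over all fitted gene and type pairs this share was 25.6%. The share with both 18-week libraries above the other 4 was not taken. The 51 RPE-annotated cells, too few to test, held 33 CDKN1A UMIs, at 0, 48.7, 186, 0, 235 and 102 CPM.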
